A study of Xenopus laevis with 20 samples.

Results

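The homeobox genes *gsc* (goosecoid), *lhx1* (Xlim-1), *not* (Xnot), *sia1* (siamois) and *sia2* (twin) were followed in gastrulae of the frog *X. laevis*. All probe sets annotated with one of these symbols, with the homeolog suffix .L or .S ignored, were taken, together with 1 *gsc* probe set that both homeologs share. The rule reads gene names and no measured value, although earlier results of these data were known when the genes were picked. It gave 9 of 15491 tested probe sets and 7 of 7621 gene symbols, with 4 probe sets for *gsc*, 2 for *not* and 1 each for *lhx1*, *sia1* and *sia2*. The probe sets were an S1_at and a dimmer A1_at probe set for *gsc.L*, a shared S1_s_at probe set for *gsc.L* and *gsc.S*, and single probe sets for *gsc.S*, *lhx1.L*, *not.L*, *not.S*, *sia1.L* and *sia2.S*.

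The organizer is the dorsal signalling centre of the frog gastrula, which directs surrounding cells towards dorsal and head fates. Maternal β-catenin switches on *sia1* and *sia2* on the dorsal side in the blastula, and their products, together with Nodal signals, activate *gsc*. Gsc is a transcriptional repressor of ventral and trunk genes, Lhx1 a LIM-homeodomain activator needed for the head organizer, and Not a homeodomain repressor needed for the notochord.

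The study set out to list the genes that respond to BMP and Wnt inhibition, the main organizer activities, when these act in ventral tissue, beside those of the embryo's own organizer. Embryos were injected at the 4-cell stage into the ventral side with *eGFP* mRNA, which every group received as a tracer, and the experimental groups also received plasmid DNA. **Ven** is ventral and **Dor** dorsal tissue of embryos with *eGFP* mRNA alone, whereas **Nog**, **Dkk** and **Nog+Dkk** are ventral tissue of embryos with plasmid for noggin, a secreted BMP antagonist, for dkk-1, a secreted inhibitor of Wnt signalling, or for both. Each sample pooled the ventral or dorsal pieces of 10 bisected embryos, and for embryos with *eGFP* mRNA alone both pieces were kept. No group received plasmid without noggin or dkk-1. Against **Ven**, an effect of plasmid DNA itself and one of its product therefore cannot be told apart. No strain or line was stated. The injected cells were only a part of the ventral tissue taken, since a single ventral blastomere was injected at the 4-cell stage. Embryos were sorted by fluorescence on the ventral side. The cut was guided by the blastopore lip at stage 10 and by the *eGFP* signal at stage 11.5.

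There were 20 arrays, with 2 per condition and stage. Clutches 1 and 2 were taken at stage 10 (early gastrula) and clutches 3 and 4 at stage 11.5 (late gastrula), which means that an effect of stage and one of clutch cannot be told apart. Values are RMA intensities, given below for the arrays in clutch order, and changes are log2 differences from 1 limma fit of the 10 groups that included the clutch. Adjustment of p-values ran over every tested probe set in a comparison, and a probe set was called at an adjusted p under 0.1. The comparisons with **Ven** at 1 stage share the same 2 **Ven** arrays, so they are not independent of one another. The array medians lay between 100.3 and 119, and the number of arrays limits the precision. Groups of 2 arrays can fail to overlap without a change, and how many of all probe sets did so was not counted. For 2 arrays, **Nog+Dkk** and **Dkk** at stage 10, the title gave clutch 2 and another label clutch 1. Their deviations followed clutch 2 (r = 0.65 and 0.74 with the clutch 2 minus clutch 1 difference of the other conditions), so the title was used.

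Markers of the dissection followed the labels. The organizer gene *chrd.1.S* (chordin) read 52.6 and 44.0 in **Ven** and 936 and 1174 in **Dor** at stage 10, and 153 and 446 against 1296 and 1734 at stage 11.5. The ventral gene *szl.S* (sizzled) was lower in each **Dor** array than in each **Ven** array of its stage, at 12.2 to 18.5 against 33.2 to 83.2. Readings of *dkk1.S* were 160 to 364 in **Dkk** and 35.8 to 67.5 in **Ven**, and *nog.L* read 33.7 to 48.8 in **Nog** and 20.4 to 35.4 in **Ven**. Whether these probe sets also read the transcript of the plasmid was not stated.

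**Figure D1:**
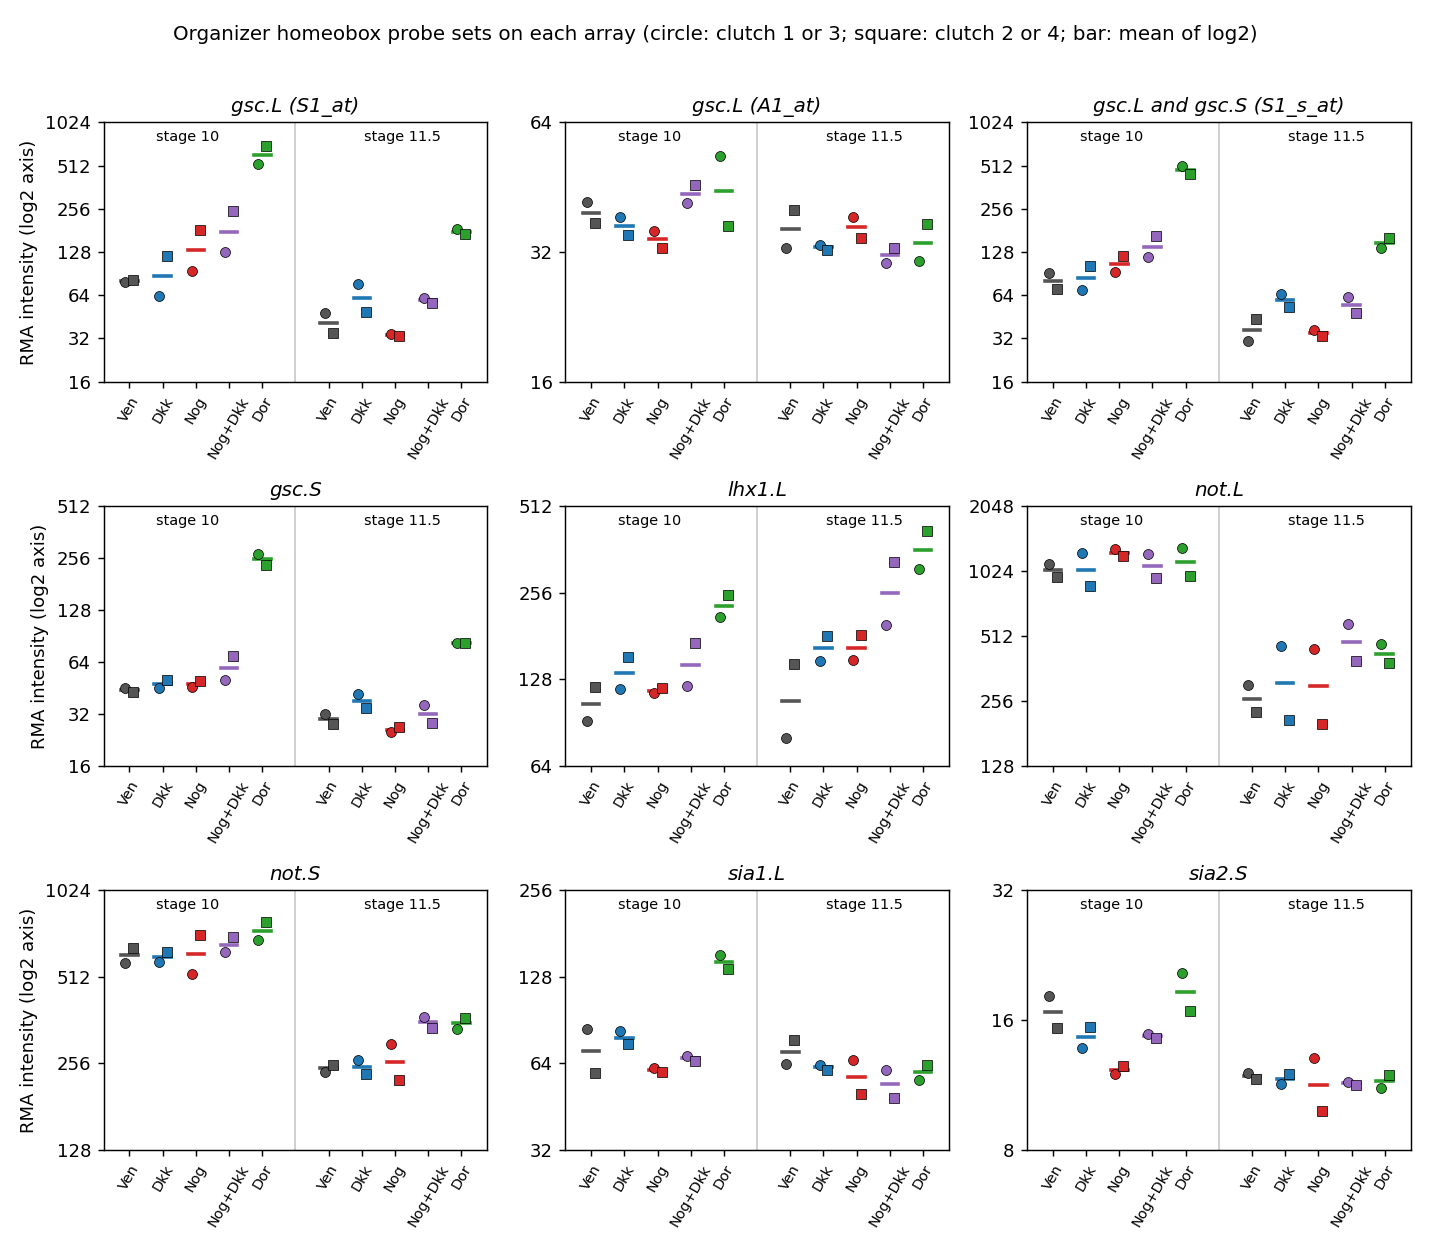
RMA intensity (log2 axis) of the 9 probe sets on every array, by condition and stage. Circles are clutches 1 and 3, squares clutches 2 and 4, and bars the mean of the log2 values. The *gsc* probe sets other than the dim *gsc.L* A1_at stand highest in **Dor** at both stages, *sia1.L* only at stage 10. The mean of *lhx1.L* climbs from **Ven** through the single plasmids and **Nog+Dkk** to **Dor** at stage 11.5.

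The endogenous organizer was described first, by **Dor** against **Ven**. At stage 10, 5 of the 9 probe sets were called, all higher, where 0.684% of all tested probe sets were called (0.504% higher). At stage 11.5, 6 of 9 were called, again all higher, where 2.84% of all were called (1.5% higher). *sia1.L* was called only at stage 10 and *not.L* and *not.S* only at stage 11.5. The difference between the stages was itself called for *sia1.L*, as given below, but not for *not.L* (0.56, adjusted p = 0.85) or *not.S* (0.24, adjusted p = 1). In bulk tissue, fewer cells of a type and less RNA per cell cannot be told apart.

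Of the upstream pair, *sia1.L* read 84.4 and 59.2 in **Ven** and 152 and 136 in **Dor** at stage 10, with no overlap. It rose 2.04-fold (log2 change 1.03, SE 0.15, adjusted p = 7.04e-04 in limma). At stage 11.5 it read 63.7 and 77.2 in **Ven** and 56.2 and 63.3 in **Dor**, a change of -0.23 (95% interval -0.54 to 0.08, adjusted p = 0.626). The stage 11.5 change minus the stage 10 change was -1.26 (adjusted p = 0.00946), in a comparison where 2 of the 9 and 0.523% of all probe sets were called (0.232% lower). The stage 10 call was lost without clutch 2, at a change of 0.85, and the call on the stage difference was lost without clutch 1 or 2, at -1.44 and -1.08. Such a removal leaves 1 array per group at that stage, and this array is assumed to vary like those of the other stage. Within 1 stage, leaving out a clutch of the other stage keeps each change and gives the same fit as that stage alone. *sia2.S* lay in the lowest 25% of all probe sets by mean intensity, at 11.98 to 20.6 at stage 10 and 9.83 to 13.0 at stage 11.5, and its stage 10 change was 0.15 and was not called.

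*gsc.L* had the largest dorsal excess of the 9 probe sets at both stages. Its S1_at probe set read 78.7 and 81.8 in **Ven** and 522 and 702 in **Dor** at stage 10, and 47.8 and 35.2 against 186 and 170 at stage 11.5. The fold changes were 7.54 (log2 2.92, SE 0.18, adjusted p = 1.29e-08) and 4.33 (log2 2.12, adjusted p = 9.96e-07). The groups did not overlap at either stage, and both were lower at stage 11.5 than at stage 10.

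The homeolog *gsc.S* read 45.3 and 42.7 in **Ven** and 273 and 235 in **Dor** at stage 10, a 5.76-fold excess (adjusted p = 2.02e-09). At stage 11.5 it read 31.96 and 27.9 against 82.3 and 82.5, a 2.76-fold excess (adjusted p = 2.87e-06). The dorsal excess of *gsc.S* was thus smaller at stage 11.5, by 1.06 on the log2 scale (log2 difference of the changes -1.06, adjusted p = 0.0184). That call was lost without clutch 1, 2 or 3, at -0.998, -1.12 and -0.96. For *gsc.L* S1_at the same difference was -0.80 and was not called (adjusted p = 0.43). The shared probe set stood 5.95-fold higher in **Dor** at stage 10 (adjusted p = 4.77e-07) and 4.01-fold at stage 11.5 (adjusted p = 7.66e-06). In contrast, the A1_at probe set of *gsc.L* stayed between 30.3 and 53.6 on all 20 arrays, in the lowest 25% of probe sets, with a **Dor** change of 0.17 at stage 10 that was not called. The 2 *gsc.L* probe sets therefore gave different results, and reads of *gsc.L* and *gsc.S* can mix on the shared one.

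*lhx1.L* read 91.3 and 120 in **Ven** and 210.5 and 251 in **Dor** at stage 10, and 79.6 and 145 against 311 and 420 at stage 11.5. The groups did not overlap at either stage. The excess was 2.19-fold at stage 10 (log2 1.13, SE 0.14, adjusted p = 9.82e-05) and 3.36-fold at stage 11.5 (log2 1.75, adjusted p = 3.46e-07). The difference between the stages, 0.62, was not called (adjusted p = 0.385). Without the clutch block, the stage 10 call was lost (adjusted p = 0.63).

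The *not* homeologs, known for expression in the organizer and then the notochord, were high everywhere at stage 10. *not.L* read 1110 and 966 in **Ven** and 1317 and 977 in **Dor**, and *not.S* read 574 and 643 against 686 and 793. The groups overlapped for *not.L*, with a change of 0.13 (95% interval -0.23 to 0.50, adjusted p = 1), whereas those of *not.S* did not overlap and its change of 0.28 (95% interval 0.02 to 0.54) was not called (adjusted p = 1). At stage 11.5 both homeologs read lower in all conditions, and the groups overlapped for neither.

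At that stage *not.L* read 302 and 227 in **Ven** and 468 and 382 in **Dor**, a 1.61-fold excess (log2 0.69, SE 0.17, adjusted p = 0.0444). *not.S* read 239 and 253 against 338 and 369, a 1.44-fold excess (log2 0.52, SE 0.12, adjusted p = 0.0308). These were the least firm of the dorsal calls. The call on *not.S* was lost without clutch 3 or 4. Both calls were lost with no clutch block and with stage 11.5 fitted alone, the same fit as without clutch 1 or 2. That on *not.L* was also lost with cyclic loess (adjusted p = 0.104 in limma) and with log2(value + 32) (adjusted p = 0.131 in limma). Rank products called *not.L* (9.70% FDR) but did not call *not.S* (19.7% FDR).

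**Figure D2:**
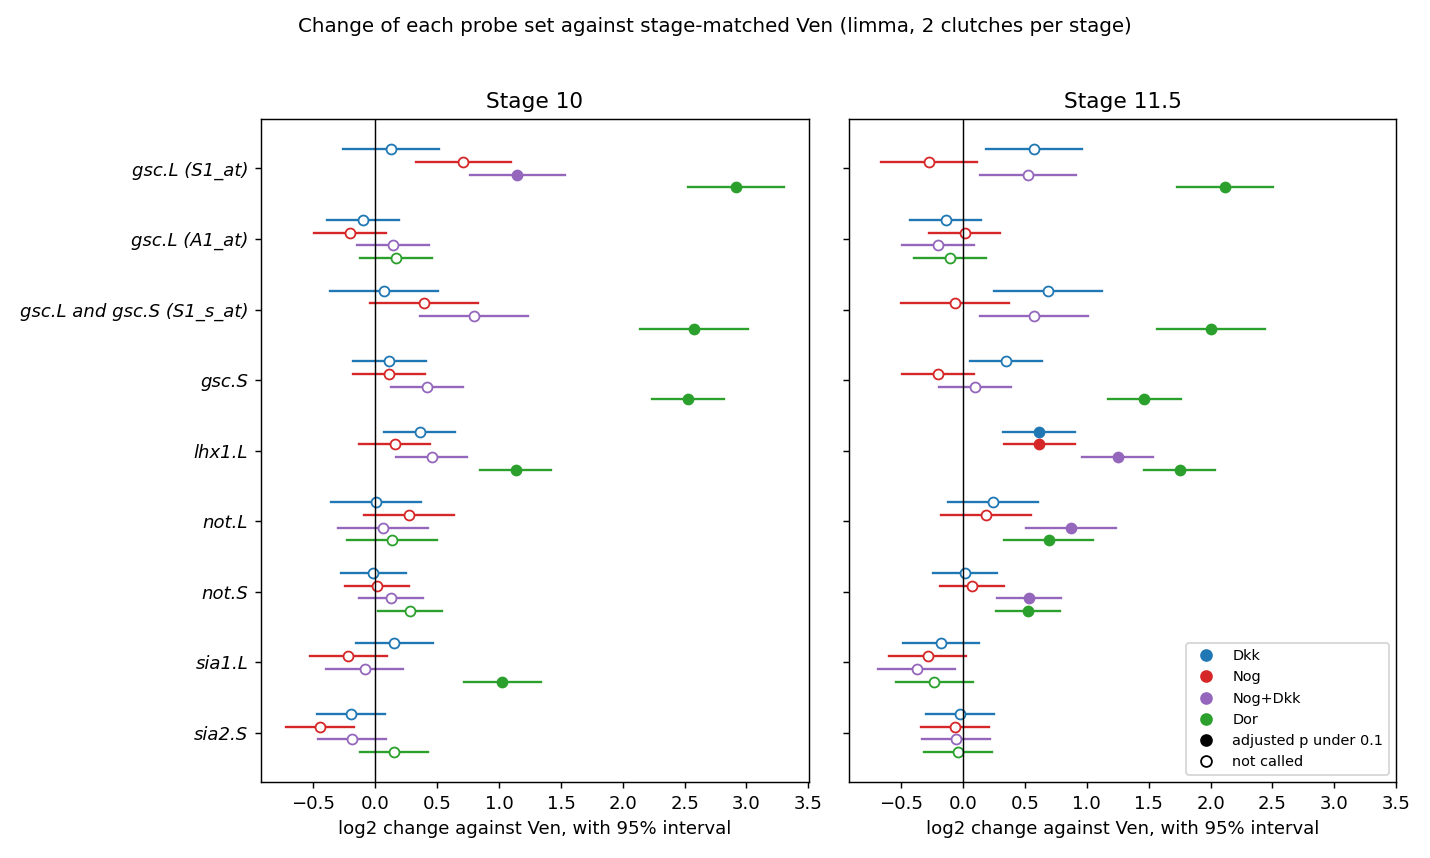
Log2 change against **Ven** of the same stage for each probe set and condition, with 95% intervals from the limma fit. Filled symbols mark an adjusted p under 0.1. Only **Dor** has filled symbols for all *gsc* probe sets but A1_at, whereas *lhx1.L* is filled in all 4 comparisons at stage 11.5 and *not.L* and *not.S* in **Nog+Dkk** and **Dor** there.

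The ectopic organizer was examined next, by the plasmid conditions against **Ven**. At stage 10, 1 of the 9 probe sets was called in **Nog+Dkk** (0.271% of all probe sets, 0.252% higher). None was called in **Nog** (0.129% of all) or in **Dkk** (0.0452% of all) by limma, and rank products called 0 in each (24 and 20 of all). An unadjusted p under 0.05 in limma was reached by 2 and 1 of the 9 and by 1489 and 507 of all 15491 probe sets. At stage 11.5, 3 were called in **Nog+Dkk** (4.6% of all, 2.66% higher), 1 in **Nog** (8.57% of all, 4.15% higher) and 1 in **Dkk** (0.445% of all, 0.194% higher). For **Nog** at stage 11.5 the share of the 9 is close to the share of all probe sets.

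The call at stage 10 was *gsc.L*. Its S1_at probe set read 127 and 248 in **Nog+Dkk**, above both **Ven** arrays, a 2.21-fold rise (log2 1.15, SE 0.18, adjusted p = 0.00476). The size differed between the clutches, at 0.70 in clutch 1 and 1.60 in clutch 2. Without clutch 2 the change was 0.70 and the call was lost, as it was at 0.91 without the 2 arrays of conflicting clutch labels, and with no clutch block at adjusted p = 1. **Nog** alone read 94.5 and 183, a change of 0.71 that was not called (adjusted p = 0.289), and here too clutch 2 moved further, by 1.16 against 0.26. **Dkk** alone read 63.5 and 121, below and above the **Ven** arrays (change 0.13, adjusted p = 1).

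The other *gsc* probe sets gave smaller values in **Nog+Dkk** at stage 10. The shared one read 118 and 165 against 91.1 and 70.4 in **Ven**, a change of 0.80 (adjusted p = 0.28), and *gsc.S* read 50.1 and 69.0, a change of 0.42 (adjusted p = 0.702). Neither was called by limma, although in each the **Nog+Dkk** arrays stood above the **Ven** arrays. The shared probe set was called by rank products (9.35% FDR) and with stage 10 fitted alone (adjusted p = 0.0783). *lhx1.L* changed by 0.46 (121 and 171, adjusted p = 0.513), and the **Nog+Dkk** arrays were again both above those of **Ven**. The readings of *sia1.L* in the plasmid conditions were 59.8 to 82.7 at stage 10, below both **Dor** arrays.

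At stage 11.5 the called genes were *lhx1.L* and the *not* homeologs, not *gsc*. *lhx1.L* read 198 and 328 in **Nog+Dkk** against 79.6 and 145 in **Ven**, a 2.38-fold rise (log2 1.25, SE 0.14, adjusted p = 9.99e-05). *not.L* read 584 and 393 against 302 and 227, a 1.83-fold rise (log2 0.87, SE 0.17, adjusted p = 0.00971), and *not.S* read 371 and 340 against 239 and 253, a 1.44-fold rise (log2 0.53, adjusted p = 0.0277). All 6 of these **Nog+Dkk** readings exceeded both **Ven** readings of their probe set. The call on *not.S* was lost without clutch 3 (0.43) and with stage 11.5 fitted alone, the same fit as without clutch 1 or 2. All 3 calls were lost with no clutch block. Rank products called *lhx1.L* (2.93% FDR) but neither *not.L* (11.5% FDR) nor *not.S* (41.1% FDR).

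*gsc.L* S1_at read 61.5 and 56.6 in **Nog+Dkk** at stage 11.5, a change of 0.52 (adjusted p = 0.152), and *gsc.S* read 36.1 and 28.2, a change of 0.10 (adjusted p = 0.777). Between the stages, the **Nog+Dkk** change of *gsc.L* S1_at differed by -0.62 (adjusted p = 0.497), that of *lhx1.L* by 0.79 (adjusted p = 0.179) and that of *not.L* by 0.81 (adjusted p = 0.323). None of the 9 was called in this stage difference by limma (0.142% of all probe sets were), and 4 had an unadjusted p under 0.05, as had 1382 of all 15491. Calls made in **Nog+Dkk** at only 1 stage are therefore not shown to differ between the stages. Rank products were not run on stage differences.

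*lhx1.L* was also called in the single-plasmid conditions at stage 11.5. It read 149 and 182 in **Nog** and 149 and 182 in **Dkk**, all above the **Ven** arrays. The rises were 1.53-fold in each, with log2 changes of 0.62 (adjusted p = 0.0151) for **Nog** and 0.61 (adjusted p = 0.0845) for **Dkk**. In both conditions clutch 3 moved further than clutch 4, by 0.91 and 0.90 against 0.33 and 0.33, and without clutch 3 both calls were lost. The call in **Dkk** was also lost with stage 11.5 fitted alone, the same fit as without clutch 1 or 2. The difference between **Dkk** and **Nog** was -0.00 (95% interval -0.29 to 0.28). Rank products called neither rise (26.2% FDR for **Nog** and 17.7% for **Dkk**). By mean, the order of *lhx1.L* at stage 11.5 was **Ven**, then **Nog** and **Dkk** side by side, then **Nog+Dkk**, then **Dor**. The last step was not called (adjusted p = 0.188 in limma), and the readings of **Nog+Dkk** and **Dor** overlapped.

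For *gsc.L* the single plasmids lay on opposite sides of **Ven** at stage 11.5. S1_at read 34.5 and 33.4 in **Nog**, below both **Ven** arrays (change -0.27, adjusted p = 0.449), and 76.0 and 48.9 in **Dkk**, above both (change 0.57, adjusted p = 0.322). Neither was called against **Ven**. On the shared probe set **Nog** was above **Ven** in clutch 3, by 0.26. The comparison of **Dkk** with **Nog**, chosen after the values were seen, gave 0.85 (1.80-fold, adjusted p = 0.0627, 0.626% of all probe sets called), with 1.14 in clutch 3 and 0.55 in clutch 4. The **Nog** readings behind it lay within the range of the dim A1_at probe set, 30.3 to 53.6. That call was lost at adjusted p under 0.05, with no clutch block and without clutch 3. It was also lost with stage 11.5 fitted alone, the same fit as without clutch 1 or 2. With log2(value + 32) the difference was 0.50 and not called (adjusted p = 0.198 in limma).

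At stage 10 the order of the single plasmids was the other way round in both clutches, with **Dkk** minus **Nog** at -0.57 and -0.60. That comparison was not called by limma (adjusted p = 0.999), where 0.00646% of all probe sets were. Rank products called it (5.87% FDR), among 7 of all probe sets. The stage 11.5 difference minus the stage 10 difference was 1.43 (SE 0.26, adjusted p = 0.084), in a comparison where 0.0775% of all probe sets were called (0.0452% higher). The call was lost without clutch 1, 2 or 3, at 1.44, 1.42 and 1.14. The shared *gsc* probe set had the same signs, with 1.08 (adjusted p = 0.382), and *gsc.S* gave 0.54 (adjusted p = 0.53).

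For **Nog** against **Ven** alone, the change of *gsc.L* S1_at was lower at stage 11.5 than at stage 10 by 0.99 (log2 difference of the changes -0.99, SE 0.26, adjusted p = 0.0944), where 1.56% of all probe sets were called (1.0% lower). It was -1.43, -0.54 and -0.79 without clutch 1, 2 and 3, and the call was lost in each case.

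**Figure D3:**
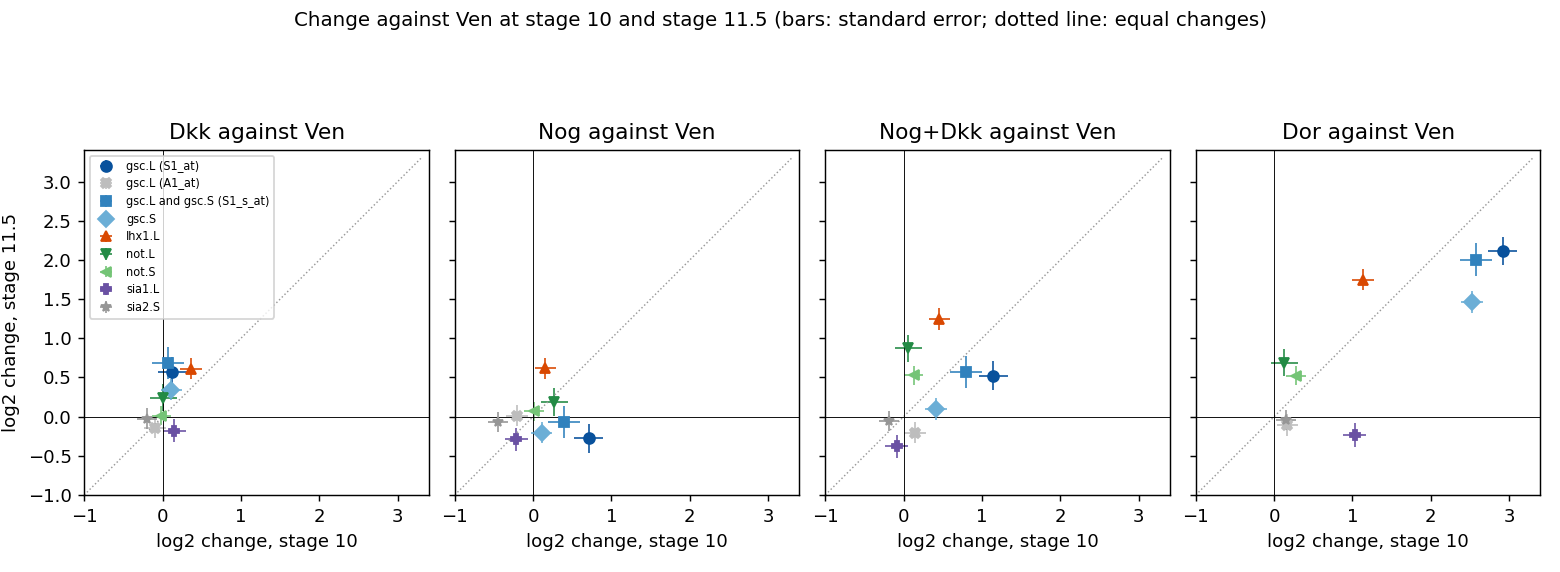
Log2 change against **Ven** at stage 10 (horizontal) and stage 11.5 (vertical) for each probe set, with standard errors. Points on the dotted line changed alike at both stages. *lhx1.L*, *not.L* and *not.S* lie above the line in **Nog+Dkk** and **Dor**, *gsc.L* S1_at below it in **Nog**, **Nog+Dkk** and **Dor** but not in **Dkk**, and *sia1.L* lies far below it in **Dor**.

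The plasmid combination was compared with the endogenous organizer directly. At stage 10, 5 of the 9 probe sets were lower in **Nog+Dkk** than in **Dor**, where 0.742% of all were called (0.265% lower), and at stage 11.5, 3 of 9 were lower, where 0.536% of all were called (0.381% lower). The *gsc* probe sets other than A1_at were among them at both stages. For *gsc.L* S1_at the differences were -1.77 (adjusted p = 1.92e-05) and -1.59 (adjusted p = 2.17e-04), for *gsc.S* -2.11 (adjusted p = 4.95e-08) and -1.37 (adjusted p = 4.92e-05), and for the shared probe set -1.78 and -1.43. No **Nog+Dkk** array reached a **Dor** array of its stage on any of these.

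At stage 10 *sia1.L* was lower than in **Dor** by 1.11 on the log2 scale (log2 difference -1.11, adjusted p = 3.44e-04), with 67.8 and 65.4 against 152 and 136. *lhx1.L* differed by -0.68 (adjusted p = 0.0236). The call on *lhx1.L* was lost without clutch 1 or 2, at -0.56 and -0.80, and that on *sia1.L* without clutch 1, at -1.06.

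At stage 11.5 *lhx1.L* overlapped between the groups, where **Nog+Dkk** read 198 and 328 and **Dor** read 311 and 420. Its difference of -0.50 (95% interval -0.79 to -0.22) was not called (adjusted p = 0.188), although in each clutch **Nog+Dkk** was the lower, and without clutch 4 it was -0.65 and called. The *not* homeologs differed by 0.18 for *not.L* (95% interval -0.18 to 0.54) and 0.01 for *not.S* (95% interval -0.25 to 0.27). Their readings in **Nog+Dkk** and **Dor** overlapped for both homeologs, and for *not.L* each clutch had the higher reading in **Nog+Dkk**. These intervals leave room for a difference either way.

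The level reached was also expressed, on the intensity scale, as a percent of the excess of **Dor** over **Ven** in the same clutch. For *gsc.L* S1_at, **Nog+Dkk** reached 11.01, 26.8, 9.89 and 15.9% in clutches 1 to 4. For *gsc.S* the values were 2.08, 13.6, 8.22 and 0.66%. *lhx1.L* reached 25.1, 38.5, 51.4 and 66.5%, above *gsc.L* S1_at in each of the 4 clutches.

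The *not* homeologs could be expressed this way only at stage 11.5, since the share was computed where **Dor** was at least 1.3 times **Ven**. **Nog+Dkk** reached 170 and 107% for *not.L* and 134 and 74.6% for *not.S* in clutches 3 and 4. With an endogenous excess that small, these percents are imprecise. The single plasmids lay far apart between the clutches for *not.L*, with 86.4 and -17.7% for **Nog** and 95.8 and -12.1% for **Dkk**.

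**Figure D4:**
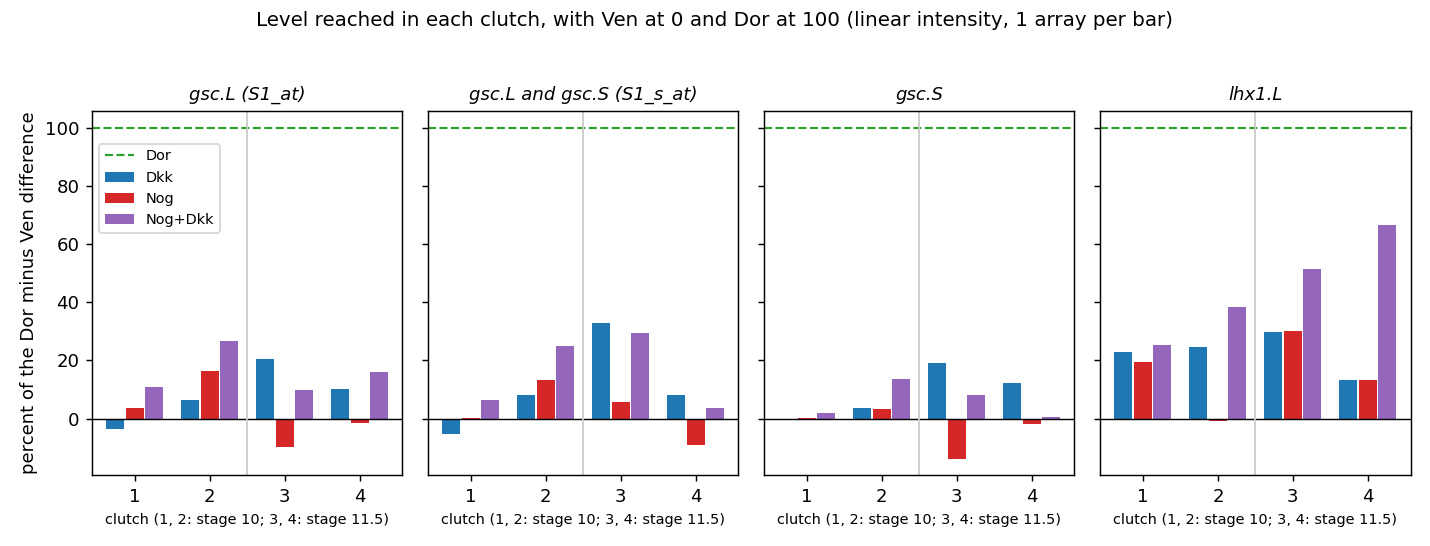
Percent of the **Dor** minus **Ven** intensity difference that **Dkk**, **Nog** and **Nog+Dkk** reached in each clutch, for *gsc.L* S1_at, the shared *gsc* probe set, *gsc.S* and *lhx1.L*. The dashed line is **Dor**, at 100%. The **Nog+Dkk** bars of *lhx1.L*, at 25.1 to 66.5%, are taller than those of *gsc.L* S1_at, at 9.89 to 26.8%.

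The contribution of each plasmid was read from **Nog+Dkk** against **Nog** and against **Dkk**. At stage 11.5, 2 of the 9 probe sets were higher than in **Nog** (0.658% of all called, 0.452% higher) and 1 was higher than in **Dkk** (0.336% of all, 0.271% higher). *lhx1.L* was higher than in **Nog** by 0.63 (adjusted p = 0.0525) and than in **Dkk** by 0.63 (adjusted p = 0.0768). Both calls were lost without clutch 4, at 0.41 and 0.42, and with stage 11.5 fitted alone, the same fit as without clutch 1 or 2. *gsc.L* S1_at was higher than in **Nog** by 0.80 (adjusted p = 0.071), with 0.83 and 0.76 in clutches 3 and 4. That call was lost without clutch 3 or 4 and with stage 11.5 fitted alone. With log2(value + 32) this probe set gave 0.46, not called (adjusted p = 0.462 in limma). Against **Dkk** it differed by -0.05 (95% interval -0.43 to 0.34). At this stage *not.L* and *not.S* were higher in **Nog+Dkk** than in either single plasmid in both clutches, by 0.31 to 0.98, but none of these 4 comparisons was called (adjusted p = 0.128 and 0.179 against **Nog**, 0.288 and 0.136 against **Dkk**).

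At stage 10 no probe set of the 9 was called in either comparison by limma, where 0.00646% of all were called against **Nog** and 0.0129% against **Dkk**. *gsc.L* S1_at differed by 0.44 from **Nog** (adjusted p = 0.748) and by 1.02 from **Dkk** (adjusted p = 0.143). The latter was near equal in the clutches, at 1.01 and 1.04. It was called with stage 10 fitted alone (adjusted p = 0.0541 in limma) and by rank products (0.226% FDR). Rank products called 41 of all probe sets against **Dkk**, the shared *gsc* probe set among them (1.375% FDR). No stage difference of **Nog+Dkk** against **Dor**, **Nog** or **Dkk** was called among the 9 by limma, where 0.155%, 0.0194% and 0.0% of all probe sets were. An unadjusted p under 0.05 was reached by 2, 2 and 6 of the 9 and by 751, 1579 and 580 of all 15491. *gsc.L* S1_at gave -1.07 in the stage difference against **Dkk** (adjusted p = 0.676).

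Whether the combination departed from the sum of the single changes was tested on the log2 scale. None of the 9 was called by limma at either stage, where 0.0% of all probe sets were called at stage 10 and 0.0129% at stage 11.5. At stage 10 an unadjusted p under 0.05 was held only by the 2 dim probe sets, *gsc.L* A1_at (0.45) and *sia2.S* (0.46). It was held by 951 of all 15491 probe sets. At stage 11.5 only *not.S* of the 9 had one, beside 1182 of all. *lhx1.L* gave -0.06 at stage 10 and 0.02 at stage 11.5 (95% interval -0.39 to 0.42), while *not.L* gave 0.44 (adjusted p = 0.739) and *not.S* 0.45 (adjusted p = 0.546) at stage 11.5. With 2 arrays per group these intervals are wide. Rank products do not apply to a difference of this form.

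The pathway around the 5 genes was described by lists of other genes. Of the upstream inputs, the Nodal, maternal and β-catenin genes that feed the organizer, 13 of 14 were measured. In **Dor** at stage 10, 1 was higher and 0 lower, where 0.504% of all probe sets were higher and 0.181% lower. At stage 11.5, 2 were higher and 2 lower (1.5% and 1.34% of all). The list medians were 0.25 and -0.03 (all probe sets -0.01 and -0.02). The 1 gene higher at stage 10 was *nodal6.L*, a Nodal ligand, with a change of 1.24 (adjusted p = 0.00155), which at stage 11.5 was 0.04 (adjusted p = 0.968). In **Nog+Dkk** it gave -0.10 and -0.13, not called. Of the list, 0 were called there at stage 10 and 4, all higher, at stage 11.5. Of all probe sets, 0.252% and 2.66% were higher in **Nog+Dkk**. Without clutch 2 the stage 10 count in **Dor** was 0, and without clutch 1, 2 or 4 the stage 11.5 count in **Nog+Dkk** was 1.

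The organizer partners are secreted factors and transcription factors expressed with the 5 genes. Of 22 measured of 24, 16 were higher in **Dor** at stage 10 and 18 at stage 11.5, and 0 were lower, with medians of 1.47 and 1.27. Of all probe sets, 0.504% and 1.5% were higher there. In **Nog+Dkk**, 5 were higher at stage 10 and 16 at stage 11.5, with medians of 0.47 and 0.82 (all probe sets 0.01 and -0.04). The share of all probe sets called higher in **Nog+Dkk** also rose, from 0.252% to 2.66%. The list holds *nog* and *dkk1*, the injected genes, and the part of plasmid transcript in their readings was not tested. Without them, of 20 measured, 4 and 14 were higher in **Nog+Dkk** (medians 0.40 and 0.82) and 14 and 16 in **Dor**. With no clutch block the full list's counts in **Nog+Dkk** were 0 and 3, and that in **Dor** at stage 11.5 was 10. Without clutch 1 or 2 the stage 10 count in **Dor** was 10 in each case, and that in **Nog+Dkk** was 2 without clutch 1, 0 without clutch 2 and 0 without the 2 arrays of conflicting labels. *chrd.1.S*, a BMP antagonist, changed by 4.45 in **Dor** at stage 10 (adjusted p = 2.02e-09) and by 1.52 in **Nog+Dkk** at stage 11.5 (adjusted p = 0.00207). *nog.L* changed by 2.94 in **Dor** at stage 10 (adjusted p = 2.49e-11) and by 0.75 in **Nog+Dkk** at stage 11.5 (adjusted p = 0.00151). *nodal3.1.L*, a divergent Nodal ligand, changed by 3.55 in **Dor** at stage 10 (adjusted p = 8.89e-11) but gave -0.15 and -0.15 in **Nog+Dkk** at stages 10 and 11.5, not called. *fzd8.S*, a Wnt receptor, changed by 2.43 in **Dor** at stage 10 (adjusted p = 4.19e-07) and by 0.95 in **Nog+Dkk** at stage 11.5 (adjusted p = 0.0113). In the single-plasmid conditions 2 and 4 partners were higher in **Nog** at stages 10 and 11.5, with 0 and 1 lower, and 1 and 5 in **Dkk**. Of all probe sets, 0.116% and 4.15% were higher in **Nog** and 0.0452% and 0.194% in **Dkk**. Without *nog* and *dkk1* the partner counts were 1 and 3 higher in **Nog** and 0 and 4 in **Dkk**.

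Another list held mainly ventral and trunk genes, chosen as genes that organizer homeobox factors are known to restrict. Whether those factors changed them here was not tested. Of 14 measured of 16, 7 were lower in **Dor** at stage 10 and 10 at stage 11.5, where 0.181% and 1.34% of all probe sets were lower, and 0 were higher, with medians of -0.72 and -0.92. In **Nog+Dkk**, 0 were lower at stage 10 and 7 at stage 11.5 (0.0194% and 1.94% of all), with medians of 0.07 and -0.57. In **Nog**, 0 and 4 were lower (0.0129% and 4.42% of all), and in **Dkk** 0 and 0 (0.0% and 0.252% of all). The stage 11.5 medians were -0.38 in **Nog** and -0.34 in **Dkk**. The count in **Dor** was 4 without clutch 2 at stage 10 and 6 without clutch 3 at stage 11.5. With no clutch block it was 0 and 3, and the count in **Nog+Dkk** at stage 11.5 was 1. *ventx1.1.L*, a ventral homeobox repressor, fell by 1.39 on the log2 scale in **Dor** at stage 10 (log2 change -1.39, adjusted p = 1.22e-04) and changed by -1.12 in **Nog+Dkk** at stage 11.5 (adjusted p = 0.00151). *ventx2.1.S*, of the same family, changed by -1.05 (adjusted p = 2.23e-05) and -0.58 (adjusted p = 0.00893) in these comparisons. *ventx2.2.L* changed by -1.15 (adjusted p = 2.91e-04) and -0.51 (adjusted p = 0.0887). *bambi.L*, a decoy receptor for BMP, changed by -1.25 in **Dor** at stage 10 (adjusted p = 0.00829), and in **Nog+Dkk** at stage 11.5 it gave -0.66, not called (adjusted p = 0.142).

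Markers of other tissues were followed too. Of all probe sets, 0.504% were higher and 0.181% lower in **Dor** at stage 10, and 1.5% and 1.34% at stage 11.5. In **Dor** at stage 10, 2 of 6 measured endoderm markers were higher (*a2m.S*, 0.86, and *gata4.L*, 0.63), and the summed intensity of the list was 2567 to 2681 against 1858 to 2393 in **Ven**. At that stage 3 of 10 epidermis markers were lower (*dlx3.S*, *dlx5.L* and *tfap2a.L*, at -1.10, -0.80 and -0.79), with sums of 1834 to 2328 against 2540 to 3153. Without clutch 2 each of these 2 counts was 1, and with no clutch block they were 0 and 1. In **Dor** at stage 11.5, 2 endoderm markers were higher and 0 epidermis markers were called (list median -0.21). In **Nog+Dkk** at stage 11.5, 0 endoderm markers and 1 epidermis marker, which was lower, were called (1.94% of all lower). At stage 10, 1 epidermis marker was higher in **Nog** and 1 in **Nog+Dkk** (0.116% and 0.252% of all higher). In **Nog** at stage 11.5, 2 epidermis markers were lower (4.42% of all lower). Of 3 measured germ plasm markers, 2 were higher in **Nog** at stage 11.5 (4.15% of all higher), with sums of 755 to 1384 against 747 to 832 in **Ven**. None was called in the other comparisons with **Ven**. The part of these tissues in the results on the homeobox genes was not tested.

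Likeness between genes was described over the 20 arrays, after the clutch mean was subtracted from each value. The points share clutches, arrays and dissection, so no test is given. *gsc.L* S1_at correlated at 0.98 with the shared probe set, 0.96 with *gsc.S* and 0.80 with *lhx1.L*, but 0.38 with *not.L*. *lhx1.L* correlated at 0.82 with *not.S* and 0.67 with *not.L*, and the *not* homeologs at 0.85 with each other. *sia1.L* correlated at 0.73 with *gsc.S* and -0.10 with *not.L*.

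Outside the 5 genes, the probe sets most like *gsc.L* S1_at were *admp.S* (0.96), a BMP-like ligand of the organizer, and *fzd8.S* (0.96), followed by a second *admp.S* probe set (0.94), *otx2.L* (0.94), a head homeobox gene, and *chrd.1.S* (0.92). *gsc.S* had *fzd8.S* (0.95) and *chrd.1.S* (0.95) first. For *lhx1.L* the leading genes were *otx2.L* (0.94), *otx2.S* (0.92), *sds.L* (0.92), *frzb.L* (0.91), a secreted Wnt antagonist, and *crx.L* (0.91). *not.S* was most like *zic1.S* (0.91), a neural plate gene, with *lhx5.S* (0.87) and *sox2.L* (0.86), a neural gene, among its first 5, whereas *not.L* led with *atg4c.S* (0.86) and *sox2.L* (0.83). *sia1.L* was most like *nodal6.L* (0.92) and *nodal3.1.L* (0.90).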

How the data were processed

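RNA of 20 samples was hybridised to 1 Affymetrix *X. laevis* Genome Array each. The authors made the deposited intensity values with RMA (version not given in the sources used here), which corrects background, quantile normalizes and summarizes per probe set, so that a general shift between arrays is removed. The study's methods speak of log2 values, but the deposited ones are linear and were log2 transformed here. The 15611 probe sets include 120 controls, which were left out. The array carries 15491 others, of which 9304 had 1 gene symbol, 195 several and 5992 none. Symbols came from the platform annotation, 2 updated by RefSeq names (assembly Xenopus_laevis_v10.1, used for names only).

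The limma package 3.58.1 (R 4.3.3) took 10 groups with clutch as a block (8 residual and 9.82 prior degrees of freedom), with Benjamini-Hochberg adjustment. Replicates are separate egg clutches. Arrays of 1 clutch deviated together within a stage (r of 0.681 to 0.841 at stage 10, 0.485 to 0.801 at stage 11.5), from titles that name the clutch. The methods' rank products, at 10% FDR, were an alternative, and the other alternatives are in the closing section. The fit was also run on arrays simulated with its own variances and clutch shifts. Such a run cannot show how well the fit suits the real arrays. Figures used matplotlib 3.10.9 in Python 3.11.15.

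The 9 probe sets, the lists and the tests were chosen with earlier results of these data known. The rule named every one of the 9, for each called in **Dor** the 5 probe sets of highest correlation, and the 4 genes per list with the largest called **Dor** change at stage 10. A gene with several probe sets was read by the brightest. **Dkk** against **Nog** and the stage differences between non-**Ven** conditions were chosen after the values were seen. A planned motif search in promoters was not run here.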

Additional observations from a re-analysis of the deposited data

Results flagged for a closer look

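A total of 4 changes differed between the stages by the test of that difference in limma. In each, stage cannot be told apart from clutch. For *gsc.L* S1_at, the **Nog** change against **Ven** was -0.99 at stage 11.5 minus stage 10 (adjusted p = 0.0944), with 0.26 and 1.16 in clutches 1 and 2 and -0.47 and -0.08 in clutches 3 and 4. For the same probe set, **Dkk** minus **Nog** differed by 1.43 (adjusted p = 0.084), with every stage 10 clutch below 0 and every stage 11.5 clutch above 0. That comparison was chosen after the values were seen. Its call was lost at adjusted p under 0.05, with cyclic loess, with log2(value + 32) and without clutch 1, 2 or 3. For *gsc.S* the **Dor** change against **Ven** differed by -1.06 (adjusted p = 0.0184), with dim **Ven** readings at stage 11.5. For *sia1.L* it differed by -1.26 (adjusted p = 0.00946).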

How the results depend on the processing

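Of 80 named changes, 33 were called, and 10 of these were called under every alternative run. These are **Dor** against **Ven** at both stages for *gsc.L* S1_at, *gsc.S* and the shared probe set, *lhx1.L* at stage 11.5, *gsc.S* in **Nog+Dkk** against **Dor** at both stages, and the shared probe set in that comparison at stage 10. Of 1088 values under alternatives, 953 kept their direction and call, 102 lost and 22 gained a call, and 11 changed sign. Array medians set equal changed no call. The 2 dim probe sets limit what can be read of *sia2* and *gsc.L* A1_at, and dim readings outside **Dor** limit *gsc.S* at stage 11.5. No detection call was used, so signal over background is unknown. The cause was tested in no case.

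The pairing of arrays by clutch mattered most. With no replicate block, the number of the 9 probe sets called in **Nog+Dkk** against **Ven** went from 1 to 0 at stage 10 and from 3 to 0 at stage 11.5, and against **Dor** from 5 to 3 and from 3 to 1. Over all probe sets these counts went from 42 to 0 and from 712 to 12, and against **Dor** from 115 to 19 and from 83 to 2. The single calls at stage 11.5 in **Nog** and **Dkk** against **Ven**, **Nog+Dkk** against **Dkk** and **Dkk** against **Nog**, and the 2 of **Nog+Dkk** against **Nog**, went to 0, as did the stage differences of **Nog** (1) and **Dor** (2) against **Ven** and of **Dkk** against **Nog** (1). No probe set at all was called in these comparisons without the block, save 3, against 81 with it, in the stage difference of **Dor**. Array deviations within a clutch were correlated, so the block was kept.

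With each stage fitted alone, **Nog+Dkk** gave 2 calls against **Ven** and 1 against **Dkk** at stage 10, and at stage 11.5 the calls of **Dkk** against **Ven**, **Nog+Dkk** against **Nog** and **Dkk**, and **Dkk** against **Nog** went to 0. The same 4 went to 0 at adjusted p under 0.05 and with log2(value + 32). Over all probe sets, stage 10 fitted alone gave 65 and 9 calls, in place of 42 and 2. For the 4 at stage 11.5, in that order, the counts over all were 69, 102, 52 and 97 in the main fit. They were 0, 26, 18 and 0 with the stage fitted alone. At adjusted p under 0.05 they were 31, 60, 30 and 44, and with log2(value + 32) 7, 44, 32 and 107. The stage differences of **Nog** against **Ven** and **Dkk** against **Nog** went to 0 at adjusted p under 0.05, with log2(value + 32), with cyclic loess and without the 2 arrays of conflicting clutch labels. Without these arrays, **Nog+Dkk** against **Ven** at stage 10 and **Dkk** against **Ven** and **Nog+Dkk** against **Dkk** at stage 11.5 also gave 0, and *gsc.L* S1_at in **Dkk** against **Ven** at stage 10 was -0.10. Cyclic loess gave 0 for **Dkk** against **Ven** at stage 11.5 (58 of all probe sets). The stage differences of **Nog** against **Ven** and **Dkk** against **Nog** held 241 and 12 of all in the main fit. With cyclic loess they held 103 and 0, at adjusted p under 0.05 13 and 1, and with log2(value + 32) 451 and 3. The stage difference of **Nog+Dkk** against **Dor** went from 0 to 1 with cyclic loess, log2(value + 32) or a trended and robust variance prior. Over all probe sets it held 24 in the main fit and 27, 13 and 30 with these. The trended and robust prior gave 2 for **Nog+Dkk** against **Dkk** at stage 11.5 (60 of all). The low-value filter gave 2 for **Dkk** against **Nog** at stage 11.5 (123 of all kept). Rank products gave 2 for **Nog+Dkk** against **Ven**, 2 against **Dkk** and 1 for **Dkk** against **Nog** at stage 10, and at stage 11.5 gave 0 for **Nog**, 0 for **Dkk** and 1 for **Nog+Dkk** against **Ven** and 2 for **Dkk** against **Nog**. In the same order they called 53, 41 and 7 of all probe sets at stage 10 and 70, 70, 82 and 67 at stage 11.5. They were run only within a stage, between 2 conditions.

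Leaving out each clutch in turn gave 0 to 2 calls for **Nog+Dkk** against **Ven** at stage 10 and 2 to 4 at stage 11.5, 3 to 5 against **Dor** and 0 to 1 against **Dkk** at stage 10, and at stage 11.5 1 to 2 for **Nog** and 0 to 2 for **Dkk** against **Ven**, 0 to 2 for **Nog+Dkk** against **Nog** and against **Dkk**, and 0 to 1 for **Dkk** against **Nog**. The stage differences gave 0 to 2 for **Nog** and for **Nog+Dkk**, 0 to 3 for **Dor** against **Ven**, and 0 to 1 for **Nog+Dkk** against **Dor** and **Nog** and for **Dkk** against **Nog**. Values that changed sign, none of them called with all clutches, were *gsc.L* S1_at in **Dkk** against **Ven** at stage 10 (-0.31 to 0.56) and in **Nog+Dkk** against **Dkk** at stage 11.5 (-0.31 to 0.21), *lhx1.L* in **Nog** against **Ven** at stage 10 (-0.013 to 0.33), *not.L* at stage 11.5 in **Nog** (-0.19 to 0.56, called without clutch 4) and **Dkk** (-0.12 to 0.61), and *not.S* in **Nog+Dkk** against **Dor** (-0.12 to 0.14). The departures from the sum did too, for *gsc.L* S1_at (-0.12 to 0.74) and *lhx1.L* (-0.30 to 0.17) at stage 10 and for *lhx1.L* (-0.49 to 0.52) and *not.L* (-0.22 to 1.0998) at stage 11.5. With log2(value + 32), 4 in place of 7 restricted genes were called in **Dor** at stage 10. Alternatives for the list counts in **Nog+Dkk** and the partner counts without *nog* and *dkk1* were chosen after the data were seen.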
